A study of Mus musculus with 5 samples.

Results

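The cytosolic ribosomal protein genes of the mouse mitral valve were followed across libraries from WT and Ift88 KO leaflets. Members were taken by symbol: names made of Rpl or Rps and a number with an optional short suffix, together with Rplp0, Rplp1, Rplp2, Rpsa and Fau, without Rps6k kinases and pseudogene symbols. The rule found 85 genes of 24062 in the count table, 51 of the large and 34 of the small subunit, and used no measured value. Ift88 encodes a protein of the transport trains that build and maintain primary cilia, and the study examined what its loss does to the leaflet transcriptome. Bulk RNA was sequenced from 2 WT and 3 KO libraries, named here WT 1, WT 2, KO 1, KO 2 and KO 3 in order of deposit. Groups were taken from the library titles. The genotype labels give NfatC1Cre(+) for every library, so a Cre recombinase driven from Nfatc1, a gene of the endocardial lineage, was present in the controls as well. The same labels place Ift88f/f with WT and Ift88+/+ with KO, which runs against the titles. No age is given in the labels. They also do not say that libraries came from separate animals, so the spread behind each p-value is that between these libraries and may be technical.

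Ribosomes are built from a small subunit, which reads the mRNA, and a large subunit, which joins amino acids and passes the growing chain out through a tunnel. Most of the proteins are present once in each particle, and cells keep their supply balanced partly through the messages themselves: many ribosomal protein mRNAs begin with a run of pyrimidines that lets mTORC1 signalling and Larp1 switch their translation on and off together. Inherited loss of a single ribosomal protein gene can cause Diamond-Blackfan anaemia, a failure of red cell production.

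Total reads per library ranged from 23361414 to 53789026, and 14244 genes passed the filter on low counts. Levels are CPM, reads on a gene relative to the reads of its library, scaled by TMM, which assumes most genes do not change, with factors of 0.837 to 1.07. Ift88 measured 7.54 and 19.8 CPM in WT 1 and WT 2 and 3.0, 3.92 and 0.409 CPM in KO 1, KO 2 and KO 3, so every KO library was below both WT libraries. Its log2 fold change was -2.48 (SE 1.13), and the gene did not pass edgeR's quasi-likelihood test (adjusted p = 0.81). Markers of valve interstitial cells summed to 2832 and 7816 CPM in WT and 8103 to 11838 CPM in KO, and endothelial markers summed to 290 and 2410 CPM in WT and 1668 to 2710 CPM in KO. Summed over 12 cardiomyocyte markers, WT 1 held 67861 CPM, WT 2 held 106 CPM and the KO libraries held 27543 to 37880 CPM. WT 2 was far below the other 4 libraries in summed cardiomyocyte markers, and WT 1 had the lowest sums of interstitial and endothelial markers. Single genes did not all follow the sums: Col1a2, Vcan and Npr3 were lowest in WT 2 and Lum in KO 3. Both WT libraries thus stand apart in these marker sums, and the medians are given without each of them.

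Start-site sequences are shown for the members whose messages differed most and least between groups, since the pyrimidine run sits at the message's first bases. RefSeq entries on GRCm38.p6 were found for 64 of the 85 members, matched by symbol. Each line gives the window of 15 bases before and 15 from the listed start, on the gene's own strand, and so covers the core promoter edge and the first bases of exon 1. Capitals mark the longest run of at least 6 C or T. For genes with several listed starts the one with the longest run is shown. The first 5 members have the lowest fold changes in KO among the members with an entry considered here, and the last 5 the highest.
Rps9, chr7:3704026-3704055, plus strand: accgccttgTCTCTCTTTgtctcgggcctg
Rpl35, chr2:39005117-39005146, minus strand: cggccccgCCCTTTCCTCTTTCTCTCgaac
Rps21, chr2:180257364-180257393, plus strand: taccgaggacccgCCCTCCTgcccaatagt
Rps18, chr17:33955651-33955680, minus strand: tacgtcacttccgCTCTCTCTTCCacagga
Rpl41, chr10:128549154-128549183, minus strand: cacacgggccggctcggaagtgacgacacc
Rps3a1, chr3:86142654-86142683, minus strand: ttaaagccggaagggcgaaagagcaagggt
Rpl12, chr2:32961697-32961726, plus strand: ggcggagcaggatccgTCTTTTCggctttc
Rpl7l1, chr17:46782642-46782671, minus strand: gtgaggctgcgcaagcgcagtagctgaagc
Rps4x, chrX:102189377-102189406, minus strand: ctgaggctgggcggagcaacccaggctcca
Rpl4, chr9:64173372-64173401, plus strand: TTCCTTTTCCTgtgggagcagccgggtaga

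Of the 64 members with an entry, 39 held such a run within 15 bases of a listed start (60.9%; 23 of 39 large and 16 of 25 small subunit genes). The share among all 27025 genes with an entry was 32.7%. Only the gene's strand was searched, and genes with more listed starts had more windows. A stricter form, a C exactly at a listed start followed by at least 4 C or T, was found in 14 of 64 members (21.9%) and in 3.01% of all genes. In the windows printed above, 4 of the 5 members with the lowest fold changes hold a run, and 2 of the 5 with the highest. One of these, the run of Rpl4, begins 15 bases before the listed start, is 11 bases long and so lies wholly before it. Among members with at least 10 CPM the median log2 fold change was -0.63 for the 36 with a run and -0.63 for the 22 without. The medians of these subsets were equal to 2 decimals.

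Most ribosomal protein genes were measured at a lower level in KO than in WT, by about the same amount in both subunits, and none passed the test. The log2 fold change was negative for 79 of the 83 members tested, against 50.6% of all genes tested. Its median was -0.61 over members (-0.55 for 49 large and -0.65 for 34 small subunit genes), and -0.01 over all 14244 genes. Members have short transcripts, and the 528 other tested genes of at most 751 nt had a median of -0.60. The call rule, an edgeR adjusted p under 0.05, called 0 of 83 members and 0% of all genes (smallest adjusted p = 0.81). At an unadjusted p under 0.05, edgeR gave 6 members lower in KO, against 1.27% of all genes, and 0 members higher, against 4.57%. DESeq2 called 0 members (smallest adjusted p = 0.117) and 2.39% of all genes. Of the 80 members with an adjusted p in the authors' deposited table, 0 were below 0.05, against 1.43% of genes, and 80 of 83 had a negative log2 fold change, against 51.2%. Since the tissue was sequenced in bulk, fewer cells of a type and less RNA per cell cannot be told apart.

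**Figure D1:**
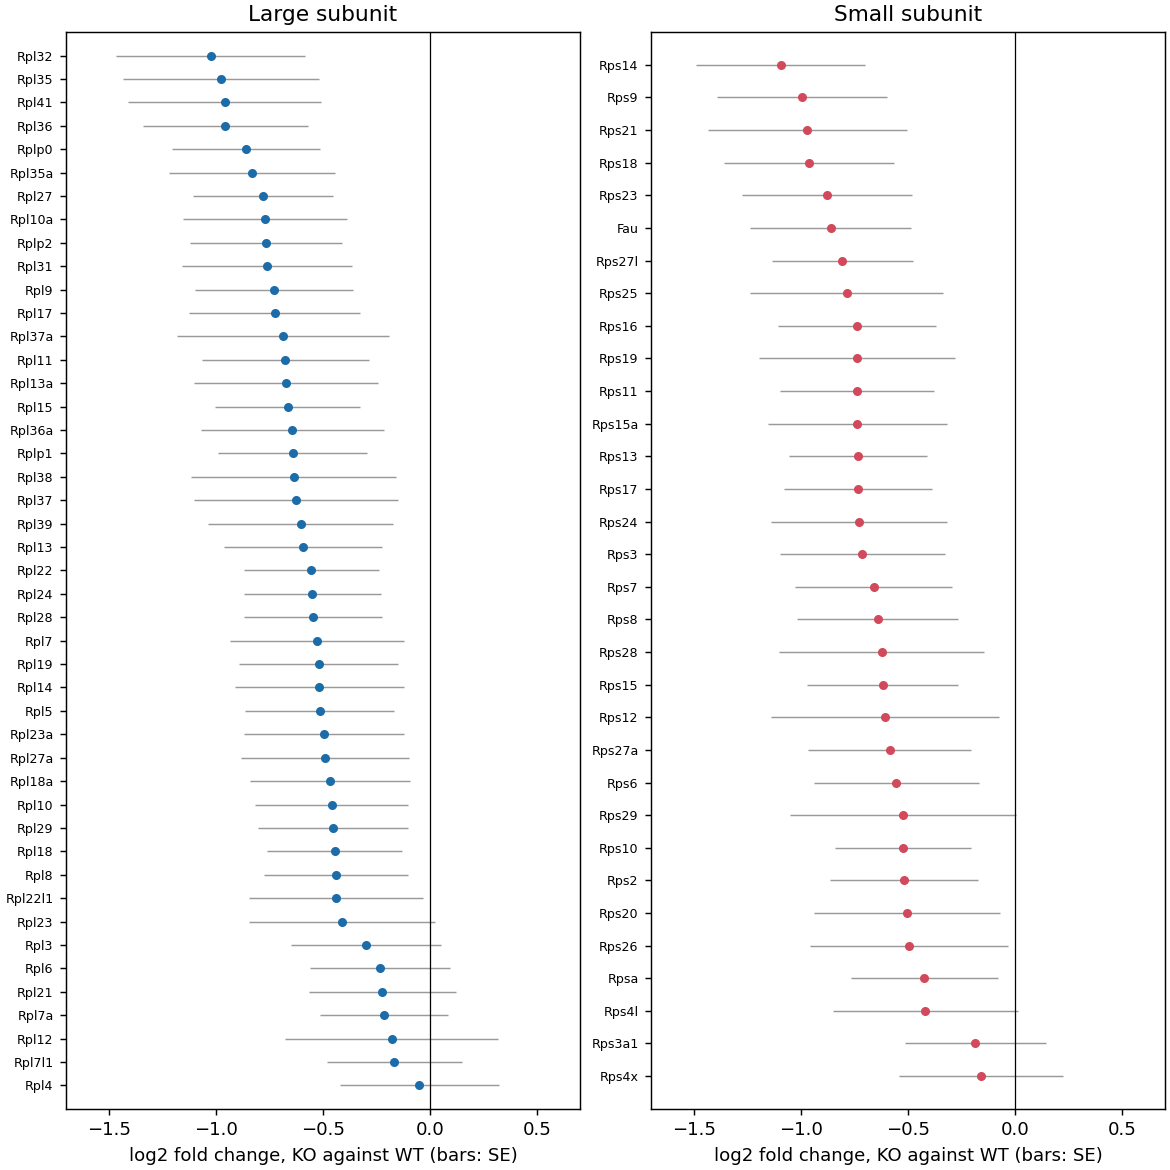
Log2 fold change of KO against WT from edgeR (x axis) for 77 of the 78 members with a mean of at least 10 CPM, sorted within each subunit. Points are estimates and bars are 1 SE. Every point lies below 0, from -1.09 (Rps14) to -0.05 (Rpl4, which is at 0.0326 with total reads as the only scaling), and most bars overlap those of their neighbours.

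All 3 KO libraries were below both WT libraries for 45 of the 83 members (54.2%; 25 of 49 large and 20 of 34 small), against 11.1% of all genes tested. No member had all KO libraries above both WT libraries, against 13.5% of all genes. This count moves with the scaling. With DESeq2 size factors it was 53 members (12.8% of all genes), with TMM factors computed without the members it was 45 (11.2%), and with each library's total reads alone, an alternative chosen after seeing the data, it was 9 members (7.55% of all genes). Under these 3 scalings 0 members were above in all KO libraries, against 12.5%, 13.4% and 15.4% of all genes. Scaling by total reads raised the median log2 fold change of all genes to 0.10 and left that of the members at -0.53.

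WT 2 gave the highest level of most members and KO 3 the lowest. WT 2 was the highest library for 73 of 83 members, against 23.7% of all genes, and KO 3 the lowest for 62, against 19.3%. Compared with WT 1 alone, all 3 KO libraries were lower for 47 of 83 members. Compared with WT 2 alone, they were lower for 76. The matching shares over all genes were not computed, so neither count is read further. Without WT 2 the members' median log2 fold change was -0.31 while that of all genes was 0.25. Without WT 1 the values were -0.85 and 0.15, and edgeR then gave 44 members lower at an unadjusted p under 0.05, against 4.12% of genes, with 0 members called (smallest adjusted p = 0.0809) and 1.6% of genes called.

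**Figure D2:**
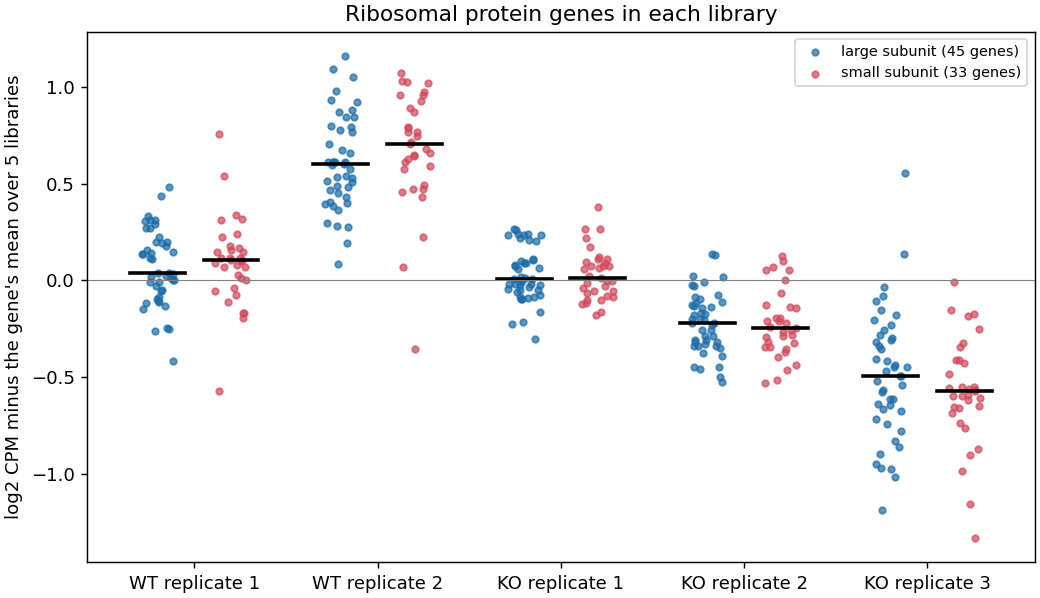
Log2 CPM of each of the 78 members with at least 10 CPM, minus that gene's mean over the 5 libraries (y axis), by library. Points are genes of the large (blue) and small (red) subunit and black lines are medians. WT 2 is the highest library in 73 of the 83 members with reads and KO 3 the lowest in 62, and the subunits move together.

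As a share of all counted reads, members took 2.54% in WT 1, 4.89% in WT 2, 2.88% in KO 1, 2.52% in KO 2 and 2.23% in KO 3. On this scale WT 1 lay inside the KO range and the groups overlapped, with WT 2 alone high. The KO mean was 2.54% ± 0.327 (SD, n = 3) and the WT mean 3.71% ± 1.66 (SD, n = 2), a difference of -1.17 percentage points. Without WT 2 the difference was 0.0038 percentage points. On the TMM scale the summed level was 30331 and 45568 CPM in WT and 28508, 23966 and 21287 CPM in KO, and the groups did not overlap. With 2 libraries against 3, the two-sided exact permutation test in the form set up here (2 times the smaller one-sided p) cannot give a p below 0.2.

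The subunits kept close to the same proportion in every library. Large subunit members took 1.39% and 2.64% of reads in WT and 1.59%, 1.39% and 1.25% in KO. Small subunit members took 1.14% and 2.25% in WT and 1.28%, 1.13% and 0.977% in KO. The ratio of large to small subunit reads was 1.22 and 1.17 in WT and 1.24, 1.23 and 1.28 in KO, so the KO libraries lay above both WT libraries by a mean of 0.0524. With reads divided by transcript length the difference was 0.0430, and leaving out each library in turn gave 0.0297 to 0.0751. When each gene counted equally, as the mean log2 CPM of large minus small members, the values were -0.55 and -0.67 in WT and -0.54, -0.56 and -0.42 in KO, where KO 2 lay below WT 1 and the groups overlapped.

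The P stalk is the arm of the large subunit that recruits elongation factors, and Rplp0, its anchor protein, was among the members lowest in KO. Rplp0 measured 1866 and 2089 CPM in WT and 1180, 956 and 1132 CPM in KO. The groups did not overlap, and both WT libraries were close to each other. The log2 fold change was -0.86 (SE 0.35; -0.78 without WT 2), and in edgeR's quasi-likelihood test it had an unadjusted p of 0.0458 and an adjusted p of 0.81. In the authors' deposited table Rplp0 had the smallest adjusted p of all members, 0.160. Rplp0 lies at chr5:115559467-115563727 on the plus strand in GENCODE M21 on GRCm38 and has 7 exons in the transcript used.

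Rplp1 and Rplp2, the acidic proteins that hang from Rplp0, had log2 fold changes of -0.64 and -0.76. Rplp1 was at 297 and 355 CPM in WT and 259, 210 and 157 CPM in KO. Rplp2 was at 211 and 210 CPM in WT and 160, 122 and 90.1 CPM in KO. Neither gene's groups overlapped, though those of Rplp1 did with total reads as the only scaling. KO 3 was the lowest library for both. Rpl12, which sits at the base of the stalk, did not follow them: it measured 47.8 and 97.2 CPM in WT and 51.7, 46.8 and 93.8 CPM in KO. WT 2 and KO 3 were high and the other 3 libraries low, and the log2 fold change of -0.18 turned to 0.42 without WT 2.

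Around the mouth of the exit tunnel, where nascent chains meet targeting factors, 7 of 8 members were tested and all 7 had lower values in KO, with a median log2 fold change of -0.60. Rpl35, which lies at that mouth, measured 273 and 668 CPM in WT and 280, 245 and 192 CPM in KO. WT 2 was far above every other library, KO 1 lay just above WT 1, and the groups overlapped. Its log2 fold change was -0.98 (SE 0.46), and -0.19 without WT 2. Rpl23a, a docking point of the signal recognition particle, measured 340 and 368 CPM in WT and 326, 256 and 172 CPM in KO, without overlap. With total reads as the only scaling its groups overlapped. Rpl4, whose loop lines the tunnel wall, had the log2 fold change nearest to 0 among members with at least 10 CPM, -0.05 (SE 0.37). It measured 501 and 730 CPM in WT and 702, 602 and 480 CPM in KO, so the groups overlapped fully, and its sign turned without WT 2 (0.25) and with total reads as the only scaling (0.0326).

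The 5S particle proteins Rpl5 and Rpl11, which hold Mdm2 when ribosome assembly fails, had log2 fold changes of -0.51 and -0.67. Rpl5 was at 574 and 849 CPM in WT and 555, 476 and 463 CPM in KO, with no overlap between groups. With total reads as the only scaling its KO 1 value exceeded that of WT 1. Rpl11 was at 189 and 368 CPM in WT and 202, 168 and 153 CPM in KO, where KO 1 exceeded WT 1. Without WT 2 their log2 fold changes were -0.20 and -0.11. Of 14 listed p53 targets tested, 8 were lower and 6 higher in KO, none called by edgeR (smallest adjusted p = 0.849), with a median log2 fold change of -0.09.

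Other large subunit members with low values in KO were Rpl32, Rpl36, Rpl41 and Rpl27. Rpl32 had the lowest log2 fold change of its subunit, -1.02 (SE 0.44), with 528 and 991 CPM in WT and 480, 377 and 263 CPM in KO. Rpl36 measured 220 and 400.0 CPM in WT and 196, 144 and 139 CPM in KO (log2 fold change -0.96, edgeR unadjusted p = 0.047). Rpl41, the shortest ribosomal protein and one that bridges the subunits, was at 641 and 1421 CPM in WT and 628, 526 and 436 CPM in KO. The groups did not overlap in any of the 3 genes, yet WT 1 was nearer to KO 1 than to WT 2 in each. With total reads as the only scaling, KO 1 exceeded WT 1 in all 3, so the groups overlapped. Without WT 2 the log2 fold changes of Rpl32, Rpl36 and Rpl41 were -0.50, -0.46 and -0.27. Rpl27, a gene mutated in Diamond-Blackfan anaemia, had closer WT values of 348 and 422 CPM and KO values of 266, 220 and 186 CPM (log2 fold change -0.78, SE 0.33, and -0.63 without WT 2). Rpl3, which reaches into the peptidyl transferase centre, overlapped between groups, with 700.1 and 1011 CPM in WT and 712, 643 and 732 CPM in KO.

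In the small subunit, Rps14, a protein of the platform near the mRNA exit, had the lowest log2 fold change of all members, -1.09 (SE 0.40, edgeR unadjusted p = 0.0316, adjusted p = 0.81) and -0.65 without WT 2. It measured 1028 and 1769 CPM in WT and 775, 601 and 587 CPM in KO. Every KO library was below both WT libraries, and WT 2 was far above WT 1. Rps9, which lines the mRNA entry channel, showed the same order of groups with 480 and 928 CPM in WT and 401, 317 and 341 CPM in KO (log2 fold change -0.995, or -0.44 without WT 2, edgeR unadjusted p = 0.0452). Rps18, a head protein that touches the large subunit, measured 699.6 and 1226 CPM in WT and 595, 457 and 430 CPM in KO (log2 fold change -0.96, or -0.50 without WT 2, edgeR unadjusted p = 0.0499). Rps27l, a relative of Rps27 that p53 can induce and the sixth gene under an unadjusted p of 0.05 in edgeR (0.0491), differed from these in that its WT values were close, at 322 and 304 CPM, with 221, 175 and 141 CPM in KO, and its log2 fold change was -0.81 with WT 2 and -0.85 without. With total reads as the only scaling, KO 1 exceeded WT 1 in Rps9 and Rps18, while Rps14 and Rps27l kept their groups apart.

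The 4 proteins listed for mRNA entry and decoding, Rps2, Rps3, Rps15 and Rps23, all had their 3 KO values below both WT values, as did 54.2% of the tested members and 11.1% of all genes. Rps23, which reaches into the decoding centre, measured 403 and 730.5 CPM in WT and 352, 330 and 243 CPM in KO (log2 fold change -0.88, SE 0.40, and -0.39 without WT 2). Rps2 was the least different of them, with 1182 and 1483 CPM in WT and 1009, 840 and 941 CPM in KO (log2 fold change -0.52). With total reads as the only scaling, none of the 4 kept its groups apart. Rpsa, the protein also known as the laminin receptor, measured 1027 and 1318 CPM in WT and 943, 800 and 878 CPM in KO (log2 fold change -0.42, SE 0.34).

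Fau and Rps27a are made as fusions with a ubiquitin-like protein and with ubiquitin, which are cleaved off after translation. Fau measured 187 and 322 CPM in WT and 168, 140 and 113 CPM in KO, and its log2 fold change was -0.86 (SE 0.38) and -0.41 without WT 2. Rps27a measured 414 and 589 CPM in WT and 411, 352 and 239 CPM in KO, where KO 1 was just below WT 1. Both genes had WT 2 highest and KO 3 lowest. Rps4x and Rps3a1 were the small subunit members closest to 0 among those with at least 10 CPM, with log2 fold changes of -0.16 (SE 0.38) and -0.18 (SE 0.33). Rps4x, an X-linked gene, measured 503 and 467 CPM in WT and 535, 477 and 292 CPM in KO, with KO 3 alone low, and without that library the log2 fold change was 0.06.

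KO 3 lay furthest below the other KO libraries in Rps29, a short protein of the subunit's head. Rps29 measured 203 and 170 CPM in KO 1 and KO 2 and 62.0 CPM in KO 3, beside 197 and 220 CPM in WT. Rpl39 measured 169 and 144 CPM in KO 1 and KO 2 and 74.8 CPM in KO 3, beside 168 and 225 CPM in WT. Only KO 3 was well below WT in both genes, and without it the members' median log2 fold change was -0.48. Of the 17 tested genes listed for Diamond-Blackfan anaemia, 16 had negative log2 fold changes (median -0.66). In 10 of the 17 all KO libraries were below both WT libraries, a share near that of all tested members (11.1% of all genes). With total reads as the only scaling that count was 2.

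Members with shorter transcripts had lower log2 fold changes, and so did other short genes. The median log2 fold change was -0.73 in the 40 members of at most 751 nt and -0.52 in the 38 longer ones. Across these 78 members the Spearman correlation with transcript length was 0.465, as a description over genes that share the same 5 libraries. Over 13590 genes with a length it was 0.406. The 528 other genes of at most 751 nt had a median of -0.60, and the 12979 other genes above that length 0.02. With each library's trend with length removed, the members' median was -0.22 and that of all genes -0.12. The part of transcript length in the members' lower values was not tested further.

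The gap between WT libraries did not follow length in the same way. WT 2 exceeded WT 1 by a median log2 of 0.53 in the shorter members and 0.59 in the longer ones, while the 528 other short genes were lower in WT 2, by a median of -0.34. KO 3 was below the mean of KO 1 and KO 2 by a log2 difference of -0.54 in the shorter members, -0.24 in the longer ones and -0.45 in the other short genes. KO 3 was the lowest library in 36 of the 40 shorter and 26 of the 38 longer members.

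**Figure D3:**
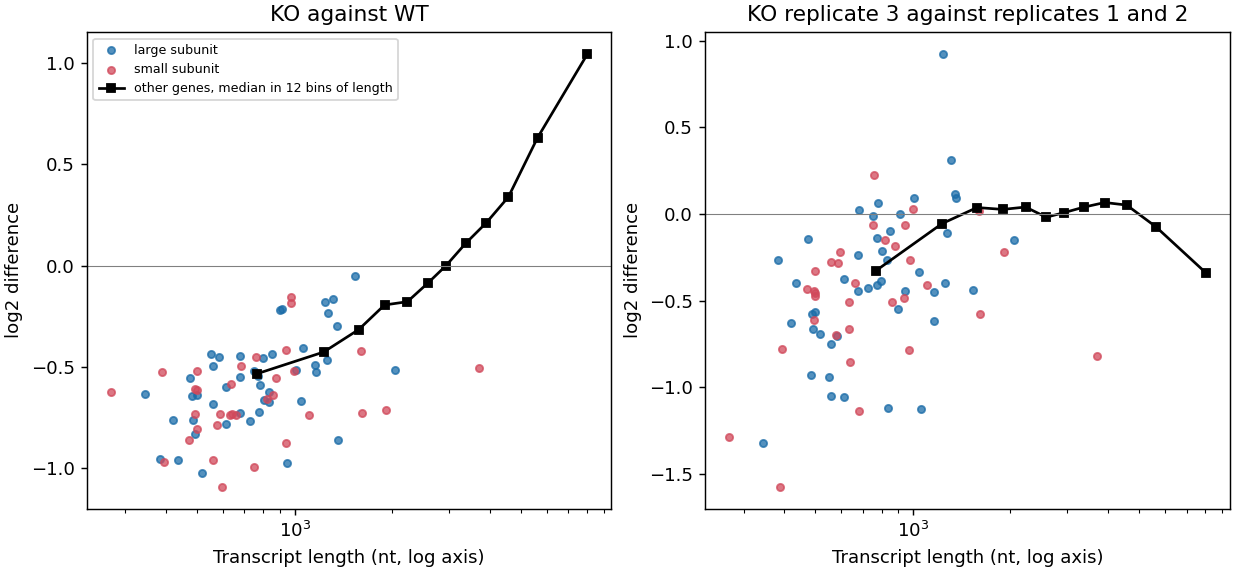
Log2 difference (y axis) against transcript length (x axis, log scale) for the 78 members with at least 10 CPM, for KO against WT (left) and for KO 3 against the mean of KO 1 and KO 2 (right). Squares are medians of other tested genes in 12 bins of length. In the left panel the members lie at the short end of a rising trend, where the first bin of other genes has a median of -0.53.

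Levels between members were compared per kb of transcript. The 78 members with at least 10 CPM ranged from 53.2 to 1671 CPM per kb, with a median of 402 (368 for large and 458 for small subunit genes). Rpl41 (1671), Rps14 (1595), Rps18 (1217), Rpl9 (1118), Rps2 (1093), Rpl13 (1071) and Rplp0 (1064 CPM per kb) were highest, and their ranges over libraries overlap. At the low end, Rps20 had 53.2 and Rpl12 54.3 CPM per kb. The value of Rps20 depends on its annotated transcript of 3706 nt, far longer than the members' median of 729 nt. The mean levels of these members thus spanned 31.4-fold.

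**Figure D4:**
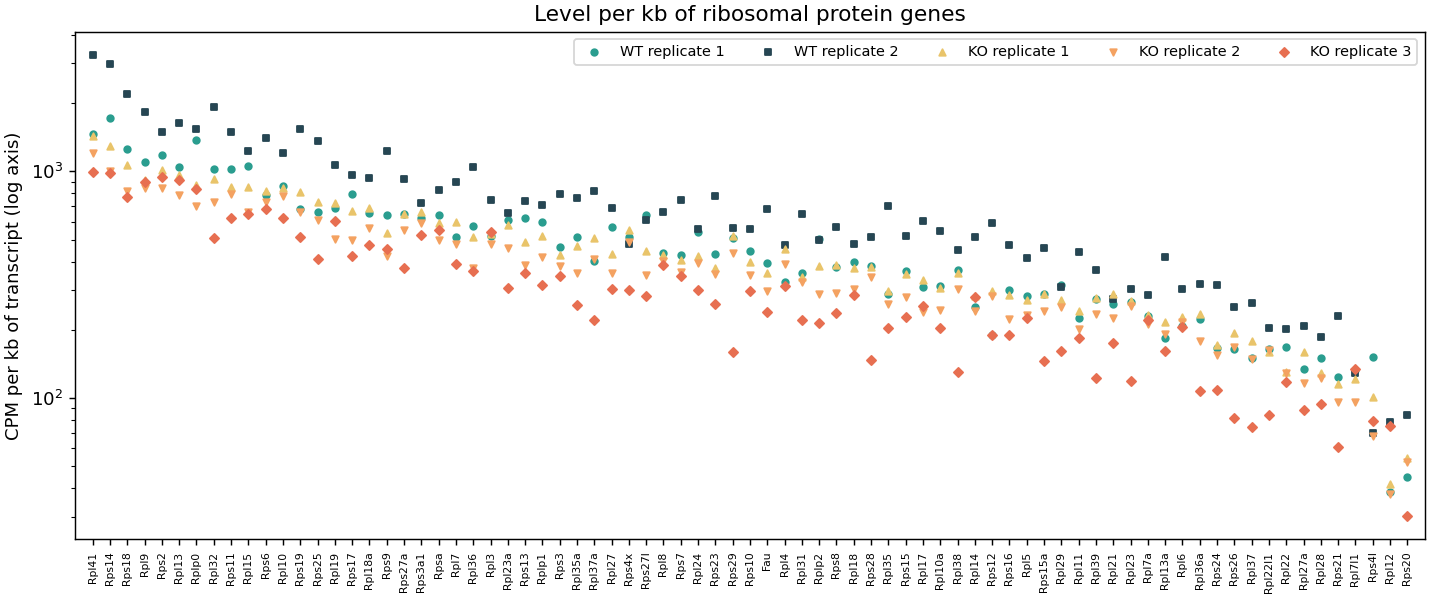
Level in CPM per kb of transcript (y axis, log scale) of 77 of the 78 members with at least 10 CPM, sorted by their mean, with a marker for each of the 5 libraries. WT 2 (dark squares) tops most genes and KO 3 (red diamonds) is lowest in most. The spread between genes, from 53.2 to 1671 CPM per kb in the mean, is wider than that between libraries.

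Several ribosomal proteins have a second gene whose product can replace the parent in the particle, often in particular tissues. Rpl3l, the form of striated muscle, had 136 reads in WT 1, 0 in WT 2 and 89, 59 and 97 in KO 1 to KO 3. The 0 in WT 2 allows up to 0.0520 CPM (3 counts), while the other libraries held 1.39 to 5.18 CPM. Rpl3l is on the cardiomyocyte list, and WT 2 is also the library in which that list summed to 106 CPM. Per kb, Rpl3l reached at most 0.726% of Rpl3 in any library.

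Rpl22l1 was at about the level of Rpl22 per kb, at 97.9% and 101% of it in WT and 123%, 126% and 71.3% in KO, where KO 3 was low and the other KO libraries high. Rpl22l1 measured 90.6 and 112 CPM in WT and 88.4, 89.9 and 46.2 CPM in KO. Rpl7l1, a relative of Rpl7 with a role in ribosome assembly, had 26.1% and 14.3% of its level in WT and 20.4%, 19.9% and 34.2% in KO. Rps4l had 29.3% and 14.6% of the level of Rps4x in WT and 18.4%, 13.9% and 26.4% in KO. In all 3 pairs the groups overlapped. Of their 50-base words, 65.6% in Rpl22l1 and 24.5% in Rpl22 also occur in other annotated transcripts. These shares were 12.2% in Rpl7l1 and 53.3% in Rpl7, and 14.9% in Rps4l and 72.2% in Rps4x. What this did to the ratios was not tested. Rpl39l, a form best known from testis, had 43 reads in WT 2, 31 in KO 1, 8 in KO 3 and 0 elsewhere, and Rpl10l, also of testis, had 0 reads in every library.

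Some members that are not variant forms had hardly any reads, and their sequence is shared with other genes. Rpl26 had 0 reads in all libraries, which allows at most 0.0520 to 0.123 CPM by library for 3 counts, and 71.3% of its 50-base words also occur in other annotated transcripts. Rps27 had 12 to 90 reads, Rpl30 8 to 40 and Rpl34 37 to 186, and they share 98.6%, 76.4% and 50.6% of their words. High sharing was also found in well-counted members, 95.1% in Rpl35 and 93.8% in Rpl5. Over all 85 members the median share was 57.4%, and 38 overlap exons of another gene. Counts of members may be affected by copies such as processed pseudogenes, which was not tested. Across the 78 members with at least 10 CPM, the Spearman correlation of level per kb with the shared percentage was 0.27. Single log2 fold changes of members under 10 CPM are not given, while the counts and medians over tested members include these genes.

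Beyond the rule, Rpl36al, a ribosomal protein gene related to Rpl36a, measured 277 and 212 CPM in WT and 170, 141 and 118 CPM in KO (log2 fold change -0.77, SE 0.33), and WT 1 rather than WT 2 was highest. Of 9 elongation factor genes 7 were lower and 2 higher (median -0.42). Eif5a, which helps ribosomes through stretches of proline, measured 2038 and 1761 CPM in WT and 1205, 1014 and 1303 CPM in KO without overlap (log2 fold change -0.69, SE 0.35). Of 14 other genes with pyrimidine-run messages, 8 were lower and 6 higher (median -0.33). edgeR called none of the genes in these lists.

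Genes that build ribosomes were split evenly in direction. Of 48 ribosome biogenesis genes tested, 24 were lower and 24 higher, with a median of 0.01. Polr1a, the largest subunit of RNA polymerase I, measured 9.67 and 8.18 CPM in WT and 29.4, 31.9 and 34.3 CPM in KO (log2 fold change 1.84, SE 0.46, edgeR adjusted p = 0.81), and its adjusted p in the authors' deposited table was 0.00365. Polr1c, a subunit shared with RNA polymerase III, measured 59.3 and 56.4 CPM in WT and 27.7, 24.98 and 26.98 CPM in KO (log2 fold change -1.12). Neither gene's groups overlapped, in opposite directions. Over other genes the median log2 fold change rose with transcript length, from -0.53 in the shortest to 1.05 in the longest bin. Values with that trend removed are not given for these genes, nor for Eif3a and Larp1 below.

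Of 30 initiation factor genes 20 were lower and 10 higher (median -0.15). Eif3a, the core subunit of the factor that loads mRNA, measured 67.3 and 59.4 CPM in WT and 223, 223 and 173 CPM in KO (log2 fold change 1.71, SE 0.33). Its adjusted p was 0.81 in edgeR, 0.00042 in DESeq2 and 0.00131 in the authors' deposited table. Of 18 genes listed for mTORC1 and Myc control 3 were lower and 15 higher (median 0.55). Larp1, which binds the pyrimidine run of ribosomal protein mRNAs, measured 2.25 and 3.19 CPM in WT and 17.2, 28.8 and 12.1 CPM in KO. Its KO libraries were all far above WT, with a log2 fold change of 2.83 (SE 0.73), an edgeR adjusted p of 0.81 and an adjusted p of 0.00657 in the authors' deposited table. The median of this list was 0.12 once each library's length trend was taken out.

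Mitochondrial ribosomal protein genes, which build a separate ribosome in the organelle, were also lower in KO (77 of 77, median -0.67) but differed in which WT library was high. Their summed level was 11890 CPM in WT 1, 5507 CPM in WT 2 and 6360, 4744 and 4877 CPM in KO. WT 1 was high there, while WT 2 was high for the cytosolic genes. Without WT 1 their median was -0.05, where that of the cytosolic genes was -0.85. Without WT 2 it was -1.10, beside -0.31. Proteasome subunit genes, another set that cells make in fixed proportion, were lower in 35 of 38 tested (median -0.36). The difference between these lists was not tested.

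The library with the highest share of reads on members was the one nearly without cardiomyocyte markers. In WT 2, at 4.89% of reads on members, the 12 markers summed to 106 CPM, and 11 of them had reads, Rpl3l being the one at 0. The other 4 libraries held marker sums of 27543 to 67861 CPM and member shares of 2.23 to 2.88%, and the highest marker sum, in WT 1, came with a share of 2.54%. All 6 haemoglobin genes listed had 0 reads. The part of cell content in the members' difference between groups was not tested.

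The size of the members' lower values depended on which libraries and which correction entered. The libraries WT 1, KO 1 and KO 2 share a code in their titles, and in these 3 alone the median log2 fold change was -0.15 (-0.11 for large and -0.18 for small subunit genes) while that of all genes was 0.23. No label says what the code stands for. In the forms of analysis plotted, the members' medians were below 0 and below the median of all genes in the same fit.

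**Figure D5:**
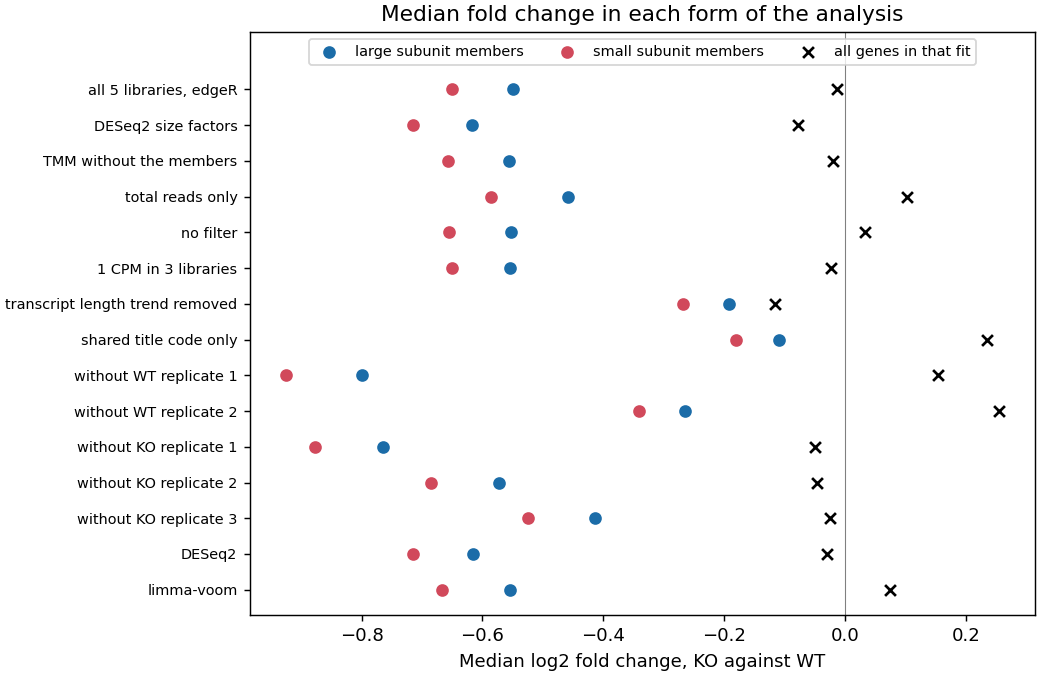
Median log2 fold change of KO against WT (x axis) for large (blue) and small (red) subunit members and for all genes (crosses), in each form of the analysis. The small subunit lies left of the large subunit in every row, and the medians run from -0.93 (small, without WT 1) to -0.11 (large, shared title code only).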

How the data were processed

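RNA of mitral valve leaflets was made into SMART-Seq v4 libraries, which do not mark strand, per the labels' protocols. Per the submitters' processing notes, the tools were FastQC 0.11.5, cutadapt 1.11, HTSeq and DESeq2, with the builds GRCm38 and mm10. The aligner used (not given in the sources used here) could affect members with near-identical copies. In the deposited file stand raw counts per gene and library and, per the file headers, the authors' mean signal of normalized counts, log2 fold change, test score, p-value and adjusted p-value.

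Counts were fitted over the whole table in edgeR 4.0.16 (R 4.3.3): filterByExpr, TMM scaling, a two-sided robust quasi-likelihood test and Benjamini-Hochberg adjustment over all genes tested. The median biological coefficient of variation was 62.8%. DESeq2 1.42.0 and limma-voom (limma 3.58.1) were alternatives. The steps were run on simulated counts, drawn without differences in cell content between libraries of a group or a trend with length. Levels are TMM-scaled CPM. Transcript lengths are of the shortest principal transcript in GENCODE M21. Shared sequence was counted as 50-base words on either strand. Start sites come from RefSeq on GRCm38.p6. Floors of 3 counts cover counting error only (reads were amplified and carry no molecular identifiers).

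The members and lists were chosen with earlier results of these data known, so they carry no test of their own. Genes named were, in each subunit, the 4 with the highest and the 4 with the lowest fold change, the 3 with the smallest p, the 3 highest and 3 lowest per kb, up to 6 without overlap between groups, paralog forms and their parents, Rplp0, Rplp1, Rplp2, Rpsa and Fau, and up to 2 genes of each list. Rpl5, Rpl11, Rpl23a, Rps3, Rps15, Rps23, Rps27a and Rps29 were named beyond this rule, after their values were seen. Mitochondrial ribosomal and proteasome genes were taken by symbol. Some single genes and the counts over the list of ribosomal proteins outside the rule are not reported here. The other marker lists (smooth muscle, macrophage, lymphocyte, adipocyte, Schwann cell, melanocyte, mast cell and epicardial) were not used for results.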

Additional observations from a re-analysis of the deposited data

How the results depend on the processing

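No member was called in any form of the analysis that kept both WT libraries (smallest adjusted p from 0.117, DESeq2, to 0.9999, edgeR without KO 2). The median log2 fold change of all members moved to -0.22 with the length trend removed and to -0.15 with the shared title code only. Large subunit members moved to -0.11 with the shared title code only, and small subunit members to -0.27 and -0.18 under those settings. Leaving out each library in turn gave medians of -0.85 to -0.31 for all members, -0.80 to -0.27 for large and -0.93 to -0.34 for small subunit genes, the ends being without WT 1 and without WT 2. The difference in share of reads ranged from -2.35 percentage points (without WT 1) to 0.0038 (without WT 2). The ratio difference between subunits was 0.0297 to 0.0751 over left-out libraries, and 0.103 as mean log2 CPM.

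Of the 78 members with at least 10 CPM, all negative in the analysis of all libraries, 10 were positive with the length trend removed (up to 0.20, Rps4x), 16 with the shared title code only (up to 0.61, Rps12), 8 without WT 2 (up to 0.44, Rps12), 2 without KO 3 and 1 each without WT 1, without KO 2 and with total reads only. None was called by edgeR in the settings that kept both WT libraries. Among the members described above, log2 fold changes with the length trend removed were 0.12 for Rpl12, 0.13 for Rpl4, 0.20 for Rps4x, 0.12 for Rpl7l1, 0.18 for Rps3a1 and 0.00042 for Rpl22l1. With the shared title code only they were 0.0426 for Rpl12, 0.38 for Rpl4, 0.0090 for Rps4x, 0.0748 for Rpl7, 0.0145 for Rps3a1 and 0.25 for Rps20. Rpl4 was at 0.0326 with total reads only. Leaving out each library in turn gave -0.63 to 0.42 for Rpl12, -0.32 to 0.25 for Rpl4, -0.37 to 0.0628 for Rps4x, -0.87 to 0.21 for Rps4l and -0.92 to 0.0229 for Rps20.

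No paired analysis was run because the replicate numbers follow the order of deposit and no label pairs single WT and KO libraries. WT 2 and KO 3 each carry a title code of their own, so a fit with the code as a term compares only the 3 libraries that share one, which is the setting given above. A denominator without mitochondrially encoded genes was not run, since the table holds 0 of the 13 listed. With 2 WT libraries that differ in cell content, differences of the size seen here were not separable from the spread between libraries, and the cause of each change was not tested.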
